A study of Mus musculus with 11 samples.

Results

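The Hox genes of the 4 mouse clusters were followed across the MamBo mammary carcinoma lines, cluster by cluster and position by position. Members were all rows of the count table whose symbol is Hoxa, Hoxb, Hoxc or Hoxd followed by a number, which gave 39 of the 21846 genes: 11 Hoxa, 10 Hoxb, 9 Hoxc and 9 Hoxd genes. RNA from 11 cultures had been sequenced, with 1 library for each. All lines go back to mammary tumors of virgin female FVBhuHER2 mice, which carry human HER2 as a transgene. MamBo89HER2stable stems from one tumor, named tumor A here, and MamBo43HER2labile from another, named tumor B, and MamBo38HER2loss was set up from a HER2-negative tumor that grew from injected MamBo43 cells.

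The 4 MamBo89 libraries, HER2-positive, were an untreated culture, an untreated culture named AG3, a culture kept in trastuzumab at 30 µg/ml for 60 days, and one that had it for 30 days followed by 30 drug-free days, called the withdrawal culture here. AG3 is probably the clone that the methods list, since the other MamBo89 libraries are accounted for, but the labels do not call it one. MamBo43 gave 1 untreated HER2-positive library, and 2 HER2-negative ones after the same 2 trastuzumab schedules, called MamBo43 TRT. The methods describe both as having lost HER2. For continuous treatment over the whole period, the study describes spindle-like cells taking over and a small share of HER2-positive cells remaining. MamBo38, HER2-negative, gave 4 libraries, of which 2 were untreated and 1 followed each schedule. Each line is a single line from 1 tumor, so that line and tumor cannot be told apart for MamBo89, and the mammary gland from which each tumor was taken is not given in the sources used here.

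Hox genes code for homeodomain transcription factors that lie side by side in clusters, and their order along the chromosome follows the order of their expression along the head-to-tail axis of the embryo. Genes with low numbers are used in anterior parts and genes with high numbers in posterior parts, and adult cells often keep part of the pattern of the place they come from. Polycomb proteins keep silent clusters closed, Trithorax proteins keep active ones open, and the PBX, MEIS and PKNOX proteins bind DNA together with Hox proteins. In the mammary gland, Hoxa9, Hoxb9 and Hoxd9 act together in growth during pregnancy, and Hoxc6 and Hoxc8 are known in the early mammary region.

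Library totals ran from 17040454 to 27127662 counts with a median of 20592201, so that the detection floor, set at 3 counts, stood for 0.113 to 0.179 CPM. CPM are counts scaled to a library size of 1e6 that was normalised by the trimmed mean of M-values. Intervals and floors given below cover counting error only. All libraries were single cultures, so that p-values measure only the spread between these cultures, and the untreated MamBo43 library was assumed to vary like the libraries of the other sets. In bulk RNA, fewer cells of a type and less RNA per cell cannot be told apart. The 12 epithelial markers summed to between 3347 and 4614 CPM in MamBo89, 4422 CPM in untreated MamBo43 and 2.07 to 3.57 CPM in MamBo38, while 12 mesenchymal markers summed to 302 to 2422, 1042 and 23657 to 33237 CPM. The 7 leukocyte markers summed to 27.1 to 50.2 CPM in MamBo38 and at most 16.9 CPM elsewhere, nearly all of it from Cd68 (26.9 to 49.9 CPM in MamBo38), while Adgre1 and Cd3e were at 0 in all libraries and Ptprc had counts in 1 alone. The 7 basal markers summed to 114 and 623 CPM in MamBo43 TRT and at most 50.2 CPM elsewhere. Most of it there came from Acta2 (69.2 CPM in the withdrawal culture and 466 CPM after 60 days). Krt14 gave 9.91 and 111 CPM and Trp63 34.4 and 40.9 CPM, while Krt5, Krt17, Myh11 and Oxtr stayed at or under 3.83 CPM. Endothelial and adipocyte markers summed to at most 0.893 and 2.68 CPM. AG3 stood apart from its line, as 16.5% to 21.3% of the genes over 5 CPM differed at least 2-fold between it and another MamBo89 library, against 0.553% to 2.68% among the other 3. A code in the library names also parts MamBo38, since 3 of its libraries carry a first code and its second untreated library carries the code of the other 7 libraries. That library differed at least 2-fold from the others of its line at 5.61% to 7.21% of these genes, against 0.101% to 0.141% among those 3.

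Of the 39 genes, 10 had no count in any library, 8 had counts but never more than 3 in a library, and 21 passed 3 counts in at least 1 library. In all, 16 genes reached 1 CPM somewhere, and 6 reached 10 CPM, namely Hoxa7, Hoxa9, Hoxa10, Hoxb3, Hoxb4 and Hoxb9. The Hoxa and Hoxb clusters held nearly all of the signal. In the Hoxd cluster 7 of 9 genes stayed at 0 in all 11 libraries, and Hoxd13, a gene of the digits and the genital tract, had at most 5 counts, in MamBo89 libraries only. In the Hoxc cluster only Hoxc6 reached 1 CPM, and Hoxc13 with at most 5 counts was the other gene past the floor.

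**Figure D1:**
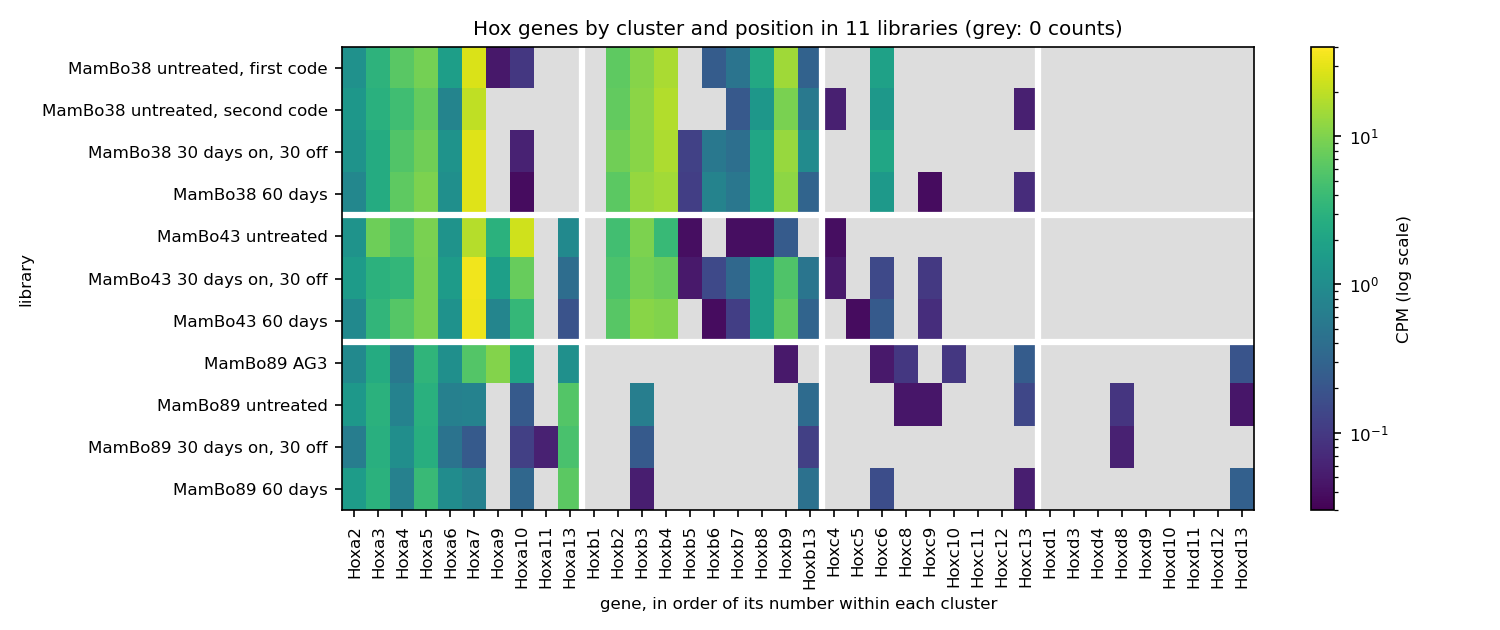
CPM on a log colour scale for the Hox genes (columns, ordered by number within each cluster, with 1 Hoxa gene not shown) in each of the 11 libraries (rows, grouped by line), with 0 counts in grey. The MamBo89 rows are grey through most of Hoxb, the MamBo38 rows are dark or grey from Hoxa9 to Hoxa13, and the Hoxd block is grey in nearly all cells.

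The sum over all Hox genes separated the tumors of origin but not the lines of tumor B. It was 14.9 to 29.9 CPM in the 4 MamBo89 libraries, against 91.9 CPM in untreated MamBo43, 94.4 and 96.4 CPM in MamBo43 TRT and 88.3 to 104 CPM in MamBo38. MamBo89 thus lay below every library of tumor B. The total was alike among the tumor B libraries, whereas its makeup was not. Hoxa genes took 79.8% of the Hox counts of untreated MamBo43, 67.8% and 61.7% in MamBo43 TRT (the withdrawal culture first, as throughout), and 44.3% to 50.2% in MamBo38. Hoxb genes took 20.2% in untreated MamBo43, 31.9% and 37.97% in MamBo43 TRT and 48.3% to 53.9% in MamBo38. In MamBo89 the Hoxa share was 92.3% to 97.6%.

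**Figure D2:**
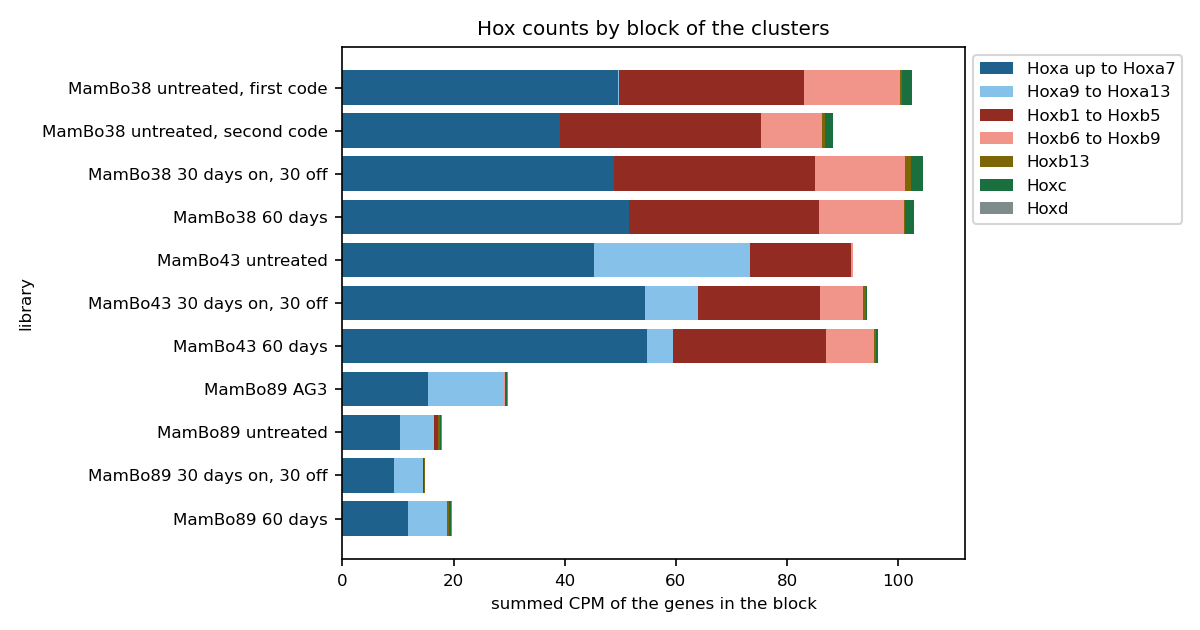
Summed CPM of the Hox genes in each library (bars), divided into blocks of neighbouring genes. MamBo89 bars end between 14.9 and 29.9 CPM and tumor B bars between 88.3 and 104 CPM, and the block Hoxa9 to Hoxa13 (light blue) is wide in untreated MamBo43 and absent by eye in MamBo38, where Hoxb6 to Hoxb9 (light red) takes room.

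The Hoxa cluster (chromosome 6, 52155590 to 52260880, minus strand, GRCm38) was the cluster that all lines used. Among its first genes Hoxa2 and Hoxa6 stayed low in all lines, while Hoxa3 stood out in untreated MamBo43. Hoxa2, which patterns the hindbrain, stayed between 0.641 and 1.59 CPM in all 11 libraries, and Hoxa6 between 0.466 and 1.68 CPM. Hoxa3, needed for thymus and parathyroid, was at 8.15 CPM in untreated MamBo43 and between 2.48 and 3.41 CPM in the other 10 libraries. Up to 25.4% of the exon bases of Hoxa3 overlap antisense genes, and since the library kit keeps no strand, reads of the 2 strands cannot be told apart.

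At Hoxa4, Hoxa5 and Hoxa7 the tumors parted. Hoxa4 was at 0.758 ± 0.213 CPM (SD, n = 4) in MamBo89 and 5.82 ± 1.03 CPM (n = 4) in MamBo38, with 5.56 CPM in untreated MamBo43 and 3.48 and 5.93 CPM in MamBo43 TRT. Hoxa5, which acts in lung and in the axial skeleton, was at 3.22 ± 0.513 CPM in MamBo89, and its 7 libraries of tumor B lay between 7.36 and 9.79 CPM. For both genes no library of tumor B overlapped with MamBo89.

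Hoxa7, an axial patterning gene, reached the highest level per kb of exon of any Hox gene, 11.9 CPM per kb in MamBo43 TRT. In MamBo38 it was at 26.4 and 19.9 CPM in the untreated libraries, 28.0 CPM in the withdrawal culture, and 28.4 CPM after 60 days. Untreated MamBo43 was at 18.1 CPM and MamBo43 TRT at 34.1 and 32.9 CPM. In MamBo89 it was at 5.83 CPM in AG3 but at 0.737, 0.233 and 0.711 CPM in the other 3. Every tumor B library lay above every MamBo89 library, and AG3 stood apart from its own line. Here too 20.4% of the exon bases overlap an antisense gene, Hoxaas3, which had no row in the table.

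At the posterior Hoxa genes the lines of tumor B differed from each other. Hoxa10, a regulator of uterine development and stroma, was at 24.1 CPM (615 counts) in untreated MamBo43. It was at 7.46 CPM in the withdrawal culture of MamBo43, and at 3.64 CPM after 60 days. In MamBo38 it had 2, 0, 1 and 1 counts, at most 0.0963 CPM. MamBo89 AG3 was at 1.99 CPM and the other MamBo89 libraries were at 0.230, 0.116 and 0.328 CPM. The order was thus untreated MamBo43, MamBo43 TRT, MamBo89 and MamBo38 with no overlap between these sets, but MamBo38 and 1 MamBo89 library were both under the floor of 3 counts.

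Hoxa9, known from blood progenitors and from mammary growth, had the same order as Hoxa10 within tumor B. There were 76 counts (2.98 CPM) in untreated MamBo43, 36 and 21 counts (1.77 and 0.804 CPM) in MamBo43 TRT, and 1 count in the 4 MamBo38 libraries together. In MamBo89 it was at 10.6 CPM (218 counts) in AG3 and at 0 in the other 3 libraries. The Hoxa9 level of MamBo89 therefore rested on AG3 alone.

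Hoxa13, a gene of the distal limb and the urogenital tract, was higher in each MamBo89 library than in any library of tumor B. It was at 5.90 CPM in the untreated culture, 5.01 and 6.56 CPM after trastuzumab, and 1.12 CPM in AG3. Untreated MamBo43 was at 0.901 CPM and MamBo43 TRT at 0.392 and 0.191 CPM. MamBo38 had no count in any of its 4 libraries, which allows up to 0.179 CPM at the shallowest of them. Hoxa11, which lies between Hoxa10 and Hoxa13, had 1 count in all 11 libraries.

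The sequence before the starts of these genes is shown for Hoxa10 and Hoxa13, the posterior Hoxa genes highest in untreated MamBo43 and in MamBo89, and for Hoxb4 and Hoxb8, Hoxb genes with a RefSeq entry that were called in MamBo38 against both other lines. A window of Hoxa9 is in the table and is not printed. Each runs from 250 bases before to 50 bases after a start site, 5′ to 3′ along the gene's strand (RefSeq, GRCm38.p6), in lower case with each CpG in capitals.
Hoxa13, chr6:52260831-52261130, minus strand: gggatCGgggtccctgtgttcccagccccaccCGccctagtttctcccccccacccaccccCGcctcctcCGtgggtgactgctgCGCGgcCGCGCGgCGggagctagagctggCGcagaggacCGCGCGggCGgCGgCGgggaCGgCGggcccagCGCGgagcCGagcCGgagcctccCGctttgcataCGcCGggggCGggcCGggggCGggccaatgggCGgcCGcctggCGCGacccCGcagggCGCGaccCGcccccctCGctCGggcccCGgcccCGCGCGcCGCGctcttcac
Hoxa10, most upstream start, chr6:52240805-52241104, minus strand: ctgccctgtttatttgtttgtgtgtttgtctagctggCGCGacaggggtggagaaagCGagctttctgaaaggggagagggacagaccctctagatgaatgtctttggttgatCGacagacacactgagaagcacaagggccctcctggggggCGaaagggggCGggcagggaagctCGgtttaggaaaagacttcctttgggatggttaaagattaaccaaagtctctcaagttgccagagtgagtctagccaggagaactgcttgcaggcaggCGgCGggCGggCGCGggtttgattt
Hoxb4, chr11:96318017-96318316, plus strand: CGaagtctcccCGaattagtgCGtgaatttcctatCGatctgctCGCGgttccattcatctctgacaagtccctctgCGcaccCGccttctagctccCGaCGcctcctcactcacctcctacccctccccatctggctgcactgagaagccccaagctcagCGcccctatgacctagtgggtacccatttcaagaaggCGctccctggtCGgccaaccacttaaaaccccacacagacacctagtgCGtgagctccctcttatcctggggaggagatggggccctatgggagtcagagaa
Hoxb8, chr11:96281655-96281954, plus strand: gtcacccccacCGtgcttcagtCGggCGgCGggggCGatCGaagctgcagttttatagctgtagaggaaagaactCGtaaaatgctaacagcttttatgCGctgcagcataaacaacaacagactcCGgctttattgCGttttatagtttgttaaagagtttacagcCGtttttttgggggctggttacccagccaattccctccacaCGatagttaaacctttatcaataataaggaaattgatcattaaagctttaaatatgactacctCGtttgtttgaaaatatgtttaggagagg
The table gave 24 such windows for 22 of the 39 genes. They held 4 to 45 CpG, with a median of 14.5 against 7 over all 32851 windows, and the window of Hoxa13 held the 45, with 81% G and C. The window of Hoxa10 held 12 CpG, that of Hoxb4 14 and that of Hoxb8 13. The letters TGACAG, which MEIS proteins prefer, were found on either strand in 2 of the 24 windows, those of Hoxa2 and Hoxa3, and in 19.2% of all windows. The letters TGATTNAT, of the kind bound by a PBX and Hox pair, were in 2 of the 24, those of Hoxa2 and a start of Hoxd11, and in 3.22% of all windows. None of the 4 windows printed here holds either.

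The Hoxb cluster (chromosome 11, 96194316 to 96368256, plus strand) was nearly empty in MamBo89 and filled to different depth in the lines of tumor B. Hoxb1, at the anterior end, had no count anywhere, and Hoxb5 never passed 3 counts. Hoxb2, a hindbrain gene, was at 0 in the 4 MamBo89 libraries, at 4.54 CPM in untreated MamBo43, at 5.25 and 6.16 CPM in MamBo43 TRT and at 6.55 to 8.35 CPM in MamBo38. Of its exon bases 27.3% overlap the antisense gene Hoxb3os, as do 52.9% of those of Hoxb3.

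Hoxb3 was at a like level in all tumor B libraries. MamBo38 had 10.8, 11.4, 11.2 and 12.7 CPM, untreated MamBo43 9.79 CPM and MamBo43 TRT 8.88 and 11.3 CPM. MamBo89 had 0 CPM in AG3 and 0.645, 0.233 and 0.0547 CPM in the others. MamBo89 lay apart, while the sets of tumor B lay close together.

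Hoxb4, known from blood stem cells, parted all 4 sets. It was at 0 in all MamBo89 libraries and at 3.84 CPM in untreated MamBo43. MamBo43 TRT was at 7.70 CPM in the withdrawal culture and at 10.1 CPM after 60 days. MamBo38 was at 15.9 and 17.7 CPM untreated and at 16.4 and 14.8 CPM after the schedules. None of the 4 sets overlapped with another at this gene.

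Hoxb9, one of the genes of mammary growth in pregnancy, spanned a wide range between the tumor B lines. Untreated MamBo43 had 6 counts (0.235 CPM) and MamBo43 TRT 5.49 and 6.81 CPM. MamBo38 was at 14.2 and 9.32 CPM untreated, 13.2 CPM in the withdrawal culture and 11.8 CPM after 60 days. MamBo89 had 1 count, in AG3. Its neighbour Hoxb8 ran alike, with 1 count in untreated MamBo43, 1.77 and 1.76 CPM in MamBo43 TRT, 1.34 to 2.31 CPM in MamBo38 and no count in MamBo89. Hoxb6 and Hoxb7 stayed under 1 CPM, with up to 20 and 14 counts in MamBo38 and no count in MamBo89.

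Hoxb13, which lies apart from the rest of its cluster and is known from prostate and tail, was at most at 0.954 CPM. It had 6 to 16 counts in MamBo38, 10 and 8 in MamBo43 TRT, 0 in untreated MamBo43 and 0 to 8 in MamBo89, so that MamBo38 and MamBo89 overlapped. Hoxc6 in the Hoxc cluster (chromosome 15) was at 1.39 to 2.15 CPM in MamBo38, at 0.147 and 0.230 CPM in MamBo43 TRT, at 0 in untreated MamBo43 and at no more than 0.164 CPM in MamBo89.

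**Figure D3:**
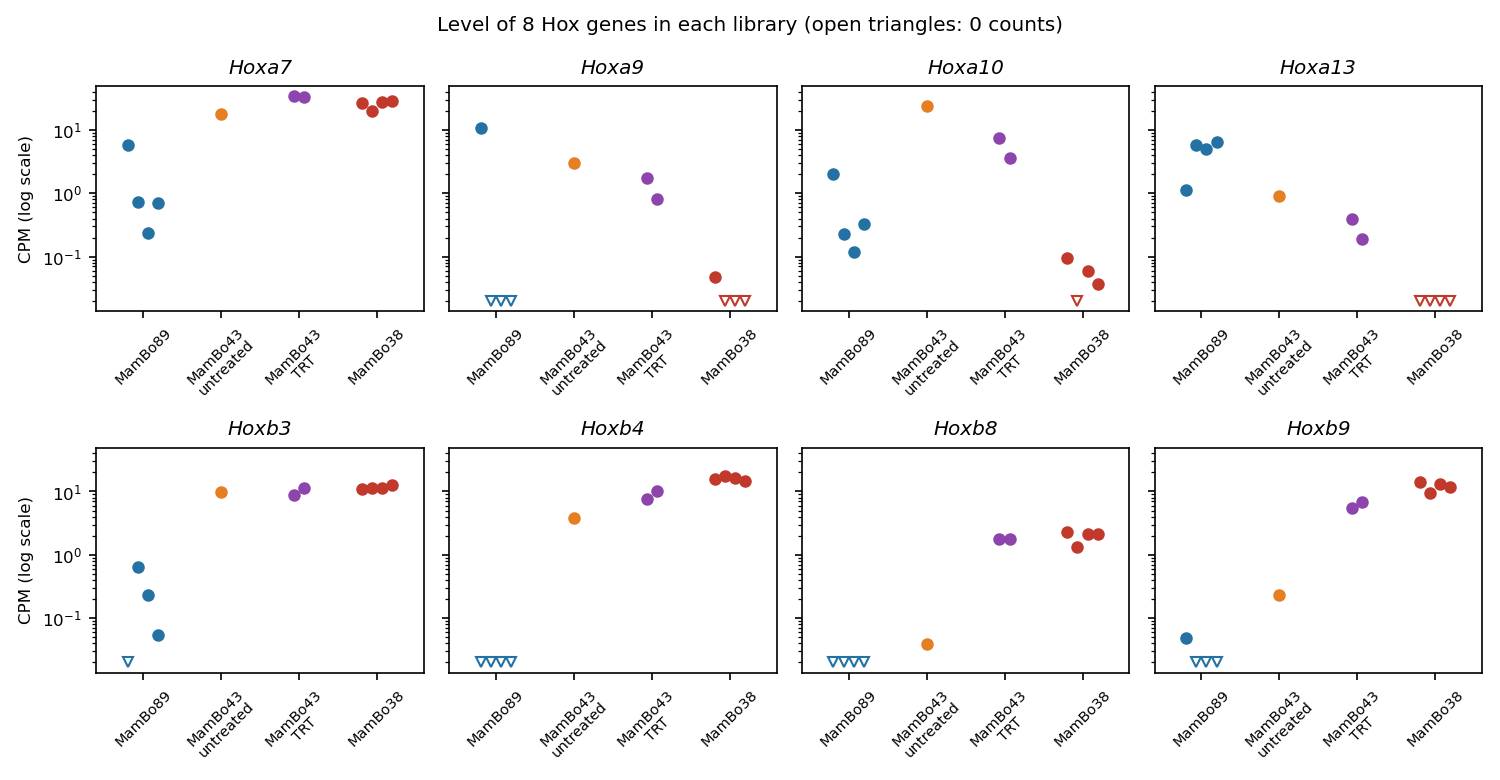
CPM on a log axis of 8 Hox genes, with 1 point for each library in 4 sets (MamBo89, untreated MamBo43, MamBo43 TRT and MamBo38) and open triangles at the lower edge for 0 counts. Hoxa10 falls from untreated MamBo43 over TRT to MamBo38 while Hoxb4 and Hoxb9 climb, and the leftmost MamBo89 point is AG3, apart from its line at Hoxa7, Hoxa9, Hoxa10 and Hoxa13.

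Per length of exon, the levels within a library could be compared between genes. In MamBo38 the mean level was highest for Hoxa7 at 8.93 CPM per kb, then Hoxb4 at 6.31, Hoxb9 at 4.72 and Hoxa5 at 4.61 CPM per kb. The ranges of Hoxb9 (3.62 to 5.52) and Hoxa5 (3.92 to 5.22) overlapped, and those of Hoxa7 (6.93 to 9.87) and Hoxb4 (5.77 to 6.89) lay close without overlap. In untreated MamBo43 Hoxa10 led at 7.37 CPM per kb, before Hoxa7 at 6.30 and Hoxa5 at 4.97 CPM per kb. In MamBo43 TRT Hoxa7 led at 11.6 CPM per kb and Hoxa10 was not among the first 5. In MamBo89 Hoxa13 led at 1.88 CPM per kb with Hoxa5 at 1.71 CPM per kb, and the ranges of both, 0.452 to 2.65 and 1.46 to 2.07 CPM per kb, overlapped.

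**Figure D4:**
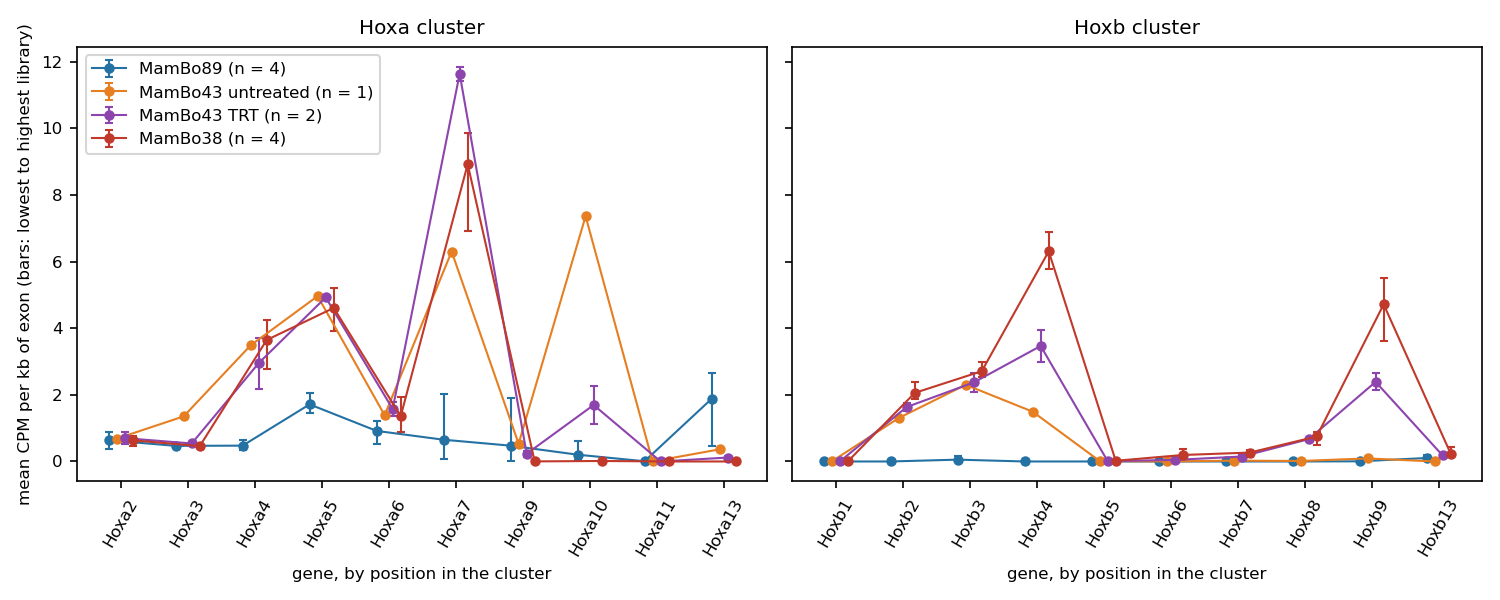
Mean CPM per kb of exon by position along the Hoxa and Hoxb clusters for the 4 sets (1 Hoxa gene is not shown), with bars from the lowest to the highest library. The tumor B lines share the peak at Hoxa4, Hoxa5 and Hoxa7, untreated MamBo43 alone peaks at Hoxa10 (7.37 CPM per kb), and MamBo38 peaks at Hoxb4 and Hoxb9.

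The comparison of MamBo38 with MamBo89 asks how the HER2-negative line differs from the stable HER2-positive one. Of the 19 Hox genes that passed the filter on low counts, 14 were called (edgeR's quasi-likelihood test, Benjamini-Hochberg adjusted p under 0.1 and a log2 fold change of at least 1 in size), 11 higher and 3 lower in MamBo38, where 41.9% of all 13782 genes tested were called, 19.9% higher and 22% lower. The median log2 fold change was 2.94 over the 19 and -0.07 over all genes. Hoxb genes made up 7 of the 11 higher ones. Hoxb4 was at least 104-fold higher (adjusted p = 3.61e-07) and Hoxb2 at least 46.1-fold higher (adjusted p = 1.18e-06). Hoxb9 was 946-fold higher as a ratio of pooled counts against the 1 count in MamBo89, with a counting interval of 169 to 37396. Hoxb3 rose by 5.55 ± 0.636 (log2, SE, adjusted p = 2.77e-05), Hoxa7 by 3.75 ± 0.730 (adjusted p = 0.00112), Hoxa4 by 2.94 ± 0.306 (adjusted p = 1.39e-05) and Hoxc6 by 4.88 ± 0.711 (adjusted p = 0.000155). The size for Hoxa7 depends on AG3, since its MamBo89 mean was 1.88 CPM with that library and 0.560 CPM without it.

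The 3 lower genes were the posterior Hoxa genes. Hoxa13 was at least 30.8-fold lower in MamBo38 (adjusted p = 0.000157). Hoxa10 was lower by a log2 fold change of -3.64 ± 1.06 (adjusted p = 0.0118). Its MamBo89 mean was 0.667 CPM with AG3 and 0.225 CPM without it, and MamBo38 had at most 2 counts in a library. Its call held without AG3, but its size depends on that library. Hoxa9 passed the test (adjusted p = 0.0249), but its groups overlapped and without AG3 its log2 fold change was 1.61 (adjusted p = 0.38), so that its call rested on that 1 library. Hoxb6 passed too (adjusted p = 0.0143), but the untreated MamBo38 library of the second code had 0 counts of it, and it gave no call with the code as a covariate. Hoxa2, Hoxa3, Hoxa6 and Hoxb13 were among those not called.

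The HER2-positive cultures of both tumors differed too. Against MamBo89, untreated MamBo43 had 9 of 19 Hox genes called, all 9 higher, where 18.9% of all genes were called, 11% higher. Hoxa10 was higher by 5.14 ± 0.904 (log2, SE, adjusted p = 0.00304), Hoxb3 by 5.32 ± 0.741 (adjusted p = 0.000748), Hoxa7 by 3.25 ± 0.907 (adjusted p = 0.0301) and Hoxa3 by 1.53 ± 0.294 (adjusted p = 0.00499). Without AG3 the MamBo89 mean fell from 0.667 to 0.225 CPM for Hoxa10 and from 1.88 to 0.560 CPM for Hoxa7. Hoxb2 was at least 29.2-fold and Hoxb4 at least 24.7-fold higher. Hoxb8 and Hoxb7, which were high or present in MamBo38, had 1 count each in untreated MamBo43. Without AG3 the count was 12, with Hoxa9, Hoxa13 and Hoxb13 added.

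Taking the 3 sets of tumor B with equal weight against MamBo89, 10 of 19 Hox genes were called, 9 higher and 1 lower, where 31.7% of all genes were called, 13.5% higher and 18.3% lower. The 9 higher were Hoxa4, Hoxa5, Hoxa7, Hoxb2, Hoxb3, Hoxb4, Hoxb7, Hoxb8 and Hoxb9, and the lower one was Hoxa13 (adjusted p = 0.000677). No log2 fold change is given for Hoxa13, since MamBo38 had no count of it. Its mean was 0.212 CPM over the 7 libraries of tumor B and 4.65 CPM in MamBo89. These comparisons share the MamBo89 libraries. The median log2 fold change over the 19 was 1.53 for untreated MamBo43 and 1.51 for tumor B, against -0.07 and -0.06 over all genes. Hoxa10, high in MamBo43 and near 0 in MamBo38, was not called here by edgeR over all 11 libraries (1.51 ± 0.820, adjusted p = 0.147). DESeq2 called it, and without AG3 edgeR called it together with Hoxa9, for a count of 12.

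Within tumor B, MamBo38 against untreated MamBo43 gave 10 called of 19, 6 higher and 4 lower, where 35.9% of all genes were called, 17.4% higher and 18.5% lower. The median log2 fold change was 0.24 over the 19 and 0.00 over all genes. The lower 4 were all Hoxa genes. Hoxa10 had a log2 fold change of -8.78 ± 1.11 (SE, adjusted p = 0.000137), a 498-fold lower mean. MamBo38 had 2, 0, 1 and 1 counts of it, all under the floor, so that this size is loose. Hoxa3 had a log2 fold change of -1.56 ± 0.294 (adjusted p = 0.00177), and Hoxa13 was at least 5.97-fold lower (adjusted p = 0.00487). Hoxa9 was 244-fold lower as a ratio of pooled counts, with an interval of 42.5 to 9768 (adjusted p = 0.0571). The higher 6 were Hoxb4, Hoxb7, Hoxb8, Hoxb9, Hoxb13 and Hoxc6. Hoxb9 was higher by 5.66 ± 0.672 (adjusted p = 8.89e-05) and Hoxb4 by 2.07 ± 0.355 (adjusted p = 0.00266), and Hoxc6 was at least 14.5-fold higher (adjusted p = 0.00396). Hoxa4, Hoxa5, Hoxa7, Hoxb2 and Hoxb3, by contrast, were not called, with log2 fold changes between -0.11 and 0.66.

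MamBo43 TRT against untreated MamBo43 compares cells of one line that lost HER2 in culture with those that kept it. Here 6 of 19 were called, 5 higher and 1 lower, where 29.1% of all genes were called, 13.6% higher and 15.5% lower, with a median log2 fold change of 0.18 over the 19 and 0 over all genes. Hoxb9 was higher by 4.68 ± 0.663 (log2, SE, adjusted p = 0.000808) and Hoxb4 by 1.21 ± 0.356 (adjusted p = 0.0376). Hoxb8 was 45.01-fold higher as a ratio of pooled counts, with an interval of 7.86 to 1799 (adjusted p = 0.00512). Hoxb13 and Hoxc6 were called on at most 10 and 6 counts, at least 3.39-fold and 1.60-fold higher. Hoxa3 had a log2 fold change of -1.32 ± 0.339 (adjusted p = 0.0146). Without the culture of 60 days the count was 3, Hoxb8, Hoxb9 and Hoxa3.

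The posterior Hoxa genes of MamBo43 TRT were below the untreated level without passing this test. As a share of the level of untreated MamBo43, Hoxa10 stood at 31.0% (95% interval 25.7 to 37.0) in the withdrawal culture and at 15.1% (12.03 to 18.8) after 60 days. Hoxa9 stood at 59.3% (38.8 to 89.3) and 27% (15.8 to 44.3), and Hoxa13 at 43.6% (16.8 to 101) and 21.2% (6.31 to 57.1). The fit across libraries gave adjusted p = 0.152 for Hoxa10, 0.739 for Hoxa9 and 0.278 for Hoxa13, with AG3 in it. Without AG3, Hoxa10 and Hoxa13 were called and the count was 8. Among epithelial genes Cdh1, which codes for E-cadherin, stood at 26.0% and 9.28% of its level in untreated MamBo43 and Epcam at 25.1% and 4.85%. Others held or rose in the withdrawal culture. Krt7 was at 260 CPM in untreated MamBo43 and at 644 and 97.7 CPM in MamBo43 TRT, and Krt18 at 1086, 914 and 110 CPM. Of the 12 epithelial markers 11 were tested here, with 6 lower and 5 not called, where 15.5% of all genes were called lower. The epithelial marker sum stood at 65.0% and 11.1%, and the mesenchymal marker sum at 4053% and 4669%. The part of the cell mixture in the Hox values was not tested.

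MamBo43 TRT against MamBo38, both HER2-negative, gave 3 called of 19, 2 higher and 1 lower, where 20.4% of all genes were called, 10.2% each way, with a median of -0.19 over the 19 and 0.01 over all genes. Hoxa10 was higher in MamBo43 TRT by 6.66 ± 1.05 (log2, SE, adjusted p = 0.00134) and Hoxa13 at least 1.93-fold higher (adjusted p = 0.0259), and Hoxc6 was lower, with a log2 fold change of -3.11 ± 0.783 (adjusted p = 0.0141). MamBo38 had at most 2 counts of Hoxa10 in a library, under the floor, so that its size is loose. No Hoxb gene was called by edgeR with TMM, although Hoxb4 (-0.86 ± 0.244, adjusted p = 0.0347) and Hoxb9 (-0.98 ± 0.347, adjusted p = 0.0567) lay just under the fold minimum. DESeq2 and edgeR with RLE size factors each called Hoxb9 as well, which made 4. Without the withdrawal culture of MamBo43 1 call was left, that of Hoxa10, and without the untreated MamBo38 library of the second code there were 5, with Hoxb6 and Hoxb9 added.

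All 6 HER2-negative libraries against all 5 HER2-positive ones gave 6 called of 13 tested, 5 higher and 1 lower, where 32.8% of all 12364 genes were called, 15.8% higher and 17% lower, with a median of 1.65 over the 13 and -0.04 over all genes. Hoxa4, Hoxa7, Hoxb4, Hoxb8 and Hoxb9 were higher and Hoxa13 lower, though the groups overlapped at Hoxa4. Hoxb9 was higher by 7.19 ± 0.838 (log2, SE, adjusted p = 4.91e-05) and Hoxa13 lower, with a log2 fold change of -5.21 ± 1.07 (adjusted p = 0.00196). HER2 status and tumor are partly the same split here, since 4 of the 5 HER2-positive libraries are MamBo89 and all 6 HER2-negative ones are of tumor B. Without untreated MamBo43, which makes both splits coincide, 10 were called, with Hoxa5, Hoxb2, Hoxb3 and Hoxc6 added.

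Trastuzumab in the lines with a fixed HER2 status left no Hox call. Treated against untreated MamBo38 cultures (n = 2 each) gave 0 of 15 called and none at an unadjusted p under 0.05 with edgeR, and treated against untreated MamBo89 cultures (n = 2 each, AG3 among the untreated) gave 0 of 8 called and 1 at an unadjusted p under 0.05. DESeq2 gave 0 in both. The 1 in MamBo89 was Hoxa7 (log2 fold change -2.79 ± 1.15, adjusted p = 0.944), whose untreated level rests on AG3. Hox calls did appear without the untreated MamBo38 library of the first code, and without the untreated MamBo89 library. Those fits left 1 untreated library, the one of the second code in MamBo38 and AG3 in MamBo89. Both treated MamBo38 libraries carry the first code. Drug could therefore not be told apart there from code or from AG3. The share called over all genes was 0% in both lines. In MamBo38 Hoxa7 differed by 0.28 ± 0.181 (log2, SE) and Hoxb3 by 0.11 ± 0.173.

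The genes whose products bind DNA with Hox proteins were read from a list of 9, all present in the table. In MamBo38 against MamBo89, where 41.9% of all genes were called (19.9% higher and 22% lower), 4 were higher and 3 lower, and 2 were not called, with a median log2 fold change of 0.71 against -0.07 over all genes. Meis2 was at 0.389, 0.184, 0.291 and 0.437 CPM in the MamBo89 libraries, 0.352 CPM in untreated MamBo43, 13.9 and 22.8 CPM in MamBo43 TRT and 22.6 to 32.6 CPM in MamBo38. Its log2 fold change was 6.36 ± 0.305 in MamBo38 against MamBo89 (adjusted p = 6.87e-08) and 5.68 ± 0.563 in MamBo43 TRT against untreated MamBo43 (adjusted p = 0.00013). Pbx4 rose as well, by 4.44 ± 0.651 (adjusted p = 0.000162), from no more than 0.116 CPM in MamBo89 to 0.963 to 2.57 CPM in MamBo38. Meis1 was at 12.3 to 16.2 CPM in MamBo38 and at 2.63 CPM in AG3, but at no more than 0.0547 CPM in the other MamBo89 libraries.

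Meis3, like Hoxa10, was highest in untreated MamBo43. It was at 31.8 CPM in untreated MamBo43, 9.86 and 6.85 CPM in MamBo43 TRT, 3.80 to 6.08 CPM in MamBo38 and 0.729 to 3.12 CPM in MamBo89. Pknox2 was at 11.2 to 21.5 CPM in MamBo89, 13.7 CPM in untreated MamBo43, 10.5 and 11.5 CPM in MamBo43 TRT and 0.335 to 1.36 CPM in MamBo38, a log2 fold change of -3.92 ± 0.377 in MamBo38 against MamBo89 (adjusted p = 7.74e-06). Pbx3 had a log2 fold change of -1.07 ± 0.161 there (adjusted p = 0.000194).

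**Figure D5:**
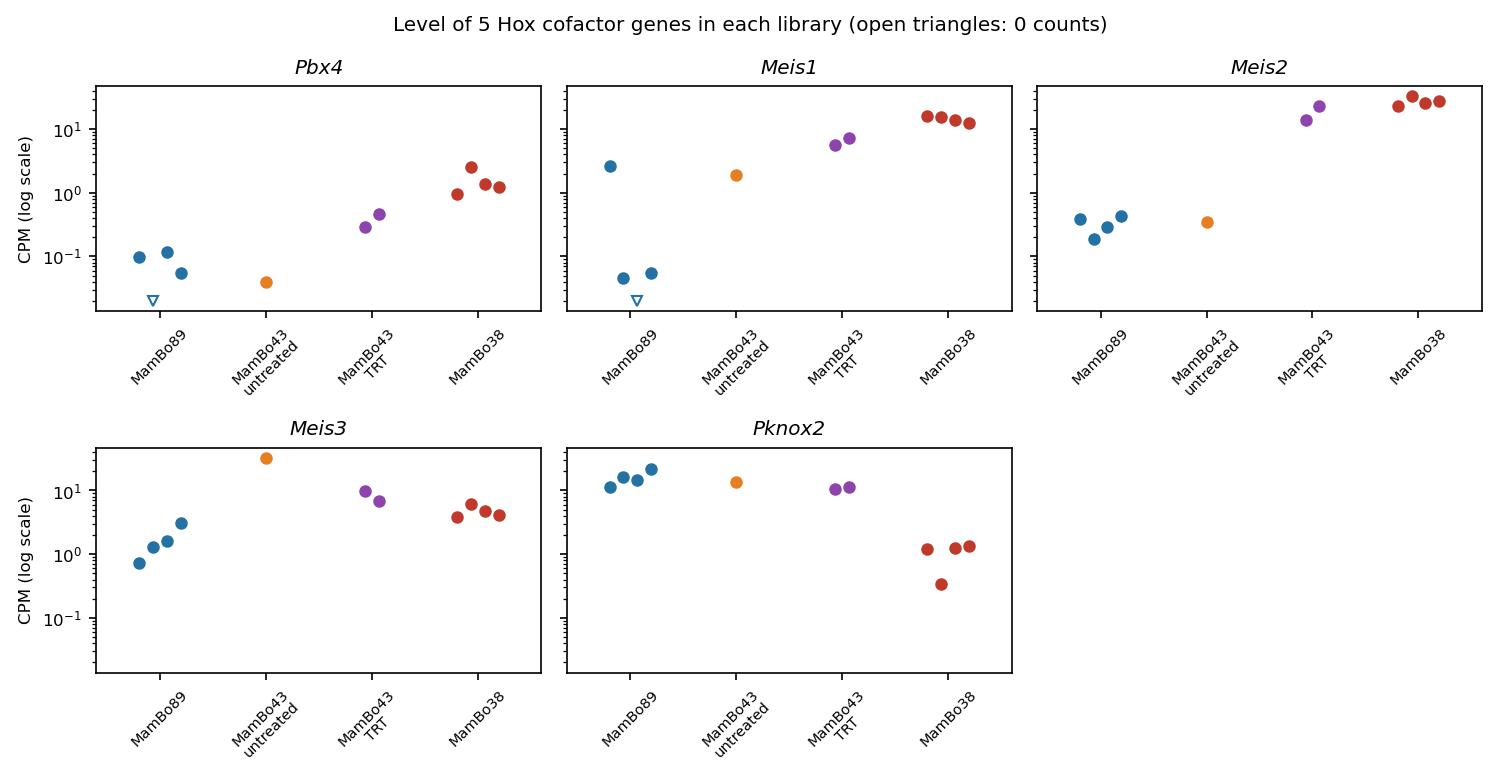
CPM on a log axis of 5 genes for partners of Hox proteins, with 1 point for each library in the same 4 sets and open triangles for 0 counts. Meis2 splits the HER2-negative sets (13.9 to 32.6 CPM) from the HER2-positive ones (at most 0.437 CPM), and Pknox2 is low in MamBo38 alone.

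Among 27 Polycomb and Trithorax genes, 2 were higher and 4 lower in MamBo38 against MamBo89 (median log2 fold change -0.21), and the same 41.9% of all genes called stands beside this list and those that follow. Cbx7, of a Polycomb complex, was higher by 2.95 ± 0.257 (adjusted p = 3.88e-06) and Rbbp4 by 1.11 ± 0.105 (adjusted p = 6.91e-06), and Cbx8, Ezh2 and the demethylase gene Kdm6a (-1.25 ± 0.119) were among the lower ones. AG3 stood apart at Ezh2, with 107 CPM against 61.0 to 67.0 CPM in the other MamBo89 libraries and 29.2 to 39.9 CPM in MamBo38. Of 15 caudal and retinoic acid genes, which act upstream of Hox genes in the embryo, 9 were tested, 2 were higher and 5 lower (median -1.08). The retinoic acid receptor genes Rarb and Rarg were the higher ones, Rarg by 1.55 ± 0.146, and Cdx4, Rara, Cyp26b1, Aldh1a1 (-3.53 ± 0.951) and Aldh1a3 were the lower ones. Aldh1a1 and Cdx4 lay near the floor. Aldh1a1 was at 0.681 CPM in AG3, 0.0921 to 0.349 CPM in the other MamBo89 libraries and at most 0.0558 CPM in MamBo38. Cdx4 was at 0.146 to 0.553 CPM in MamBo89 and 0 in MamBo38. Of 17 genes next to the clusters, 15 were in the table and 10 were tested, with 2 higher, Calcoco1 (1.38 ± 0.168) and Atp5g2 (1.06 ± 0.174) on the Hoxc side, and 1 lower, Hibadh (-1.05 ± 0.132) on the Hoxa side. The 10 listed noncoding RNAs of the clusters had no row under their names.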

How the data were processed

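RNA of 11 cultured cell samples was sequenced as single-end 75-nt reads from a kit that keeps no strand (TruSeq RNA Sample Prep v2). The authors deposited 1 table of gene counts, and the submitters' processing notes name bcl2fastq, STAR 2.5, RSEM 1.3.0 and the build mm10, while the annotation is not given in the sources used here. All values in the table were whole numbers, and all 11 columns were used.

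Counts were scaled by TMM and tested with edgeR 4.0.16 (quasi-likelihood test, R 4.3.3) after a filter on low counts (filterByExpr, minimum count 10, minimum total 15), with Benjamini-Hochberg adjustment over all genes tested. Calls needed an adjusted p below 0.1 together with a log2 fold change that was 1 or more in size. One fit over the 4 sets (MamBo89, MamBo43 untreated, MamBo43 TRT, MamBo38) gave the comparisons of lines and tumors, which therefore share libraries, and separate fits gave HER2 status and trastuzumab within a line. Folds against sets at 0 are lower bounds at 3 counts per library, and against 1 to 3 counts are pooled ratios with exact 95% intervals. The edgeR fit was run on simulated counts for MamBo38 and untreated MamBo43 against MamBo89, for HER2 status and for trastuzumab in MamBo89. The other steps were not run on simulated data.

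The Hox genes, the gene lists and the tests were chosen with earlier results of these data known. Genes at 10 CPM or more in a library are given in every library and those at 1 CPM or more with values, and from other lists called genes and those beside a Hox result are named. Results for a few single genes are not reported here. Exon lengths and overlaps are from GENCODE on GRCm38, and start site windows from RefSeq (GRCm38.p6). DESeq2 1.42.0, other size factors, other filters, the library code as a covariate and each library left out in turn were the alternatives. The difference of trastuzumab effects between lines was a fit chosen after seeing the data.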

Additional observations from a re-analysis of the deposited data

Results flagged for a closer look

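Dixon's ratio was taken in each of 54 groups of values (a Hox gene over the libraries of a line or of a HER2 status). It is the gap between the most distant library and the next, divided by the range of the whole group. Its 95% value was passed in 12 groups. About 1 in 20 would pass by chance with independent, normally distributed values, but these groups share libraries. Within MamBo89, AG3 stood apart at Hoxa7 (5.83 CPM), Hoxa9 (10.6 CPM) and Hoxa10 (1.99 CPM). Among the 5 HER2-positive libraries AG3 stood apart at Hoxa9 (10.6 CPM), and untreated MamBo43 stood apart at Hoxa3 (8.15 CPM), Hoxa4 (5.56 CPM), Hoxa5 (9.32 CPM), Hoxa10 (24.1 CPM), Hoxb2 (4.54 CPM), Hoxb3 (9.79 CPM), Hoxb4 (3.84 CPM) and Hoxb9 (0.235 CPM). It is the only library of tumor B among these 5.

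The effect of trastuzumab was compared between MamBo43 and the other lines as an interaction in an edgeR fit, chosen after seeing the data. Against MamBo38, the log2 effect was larger in MamBo43 by 4.59 ± 0.78 (SE) for Hoxb9 (adjusted p = 0.0113) and by 5.08 ± 1.1 for Hoxb8 (adjusted p = 0.0338), where 22.1% of all genes passed an adjusted p of 0.1. Against MamBo89, the effect was larger in MamBo43 by 3.65 ± 1.25 for Hoxa7 (adjusted p = 0.0813) and differed by -1.41 ± 0.50 for Hoxa3 (adjusted p = 0.0878), where 25.7% of all genes passed. Hoxb9 gave adjusted p = 0.0737 against MamBo89 too, but MamBo89 had 1 count of it, under the floor, so that no size is given. Without AG3 the difference for Hoxa7 was 1.48 (adjusted p = 0.151) and no longer passed, while Hoxb3 against MamBo89 (2.16 ± 0.719, adjusted p = 0.075) and Hoxb4 against MamBo38 (1.298 ± 0.389, adjusted p = 0.053) passed, where 27.8% and 33.6% of all genes did.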

How the results depend on the processing

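Across the alternatives, 120 counts of called Hox genes stayed within 1.5 times the reported count and 14 did not. Of the log2 fold changes of called Hox genes, 400 kept their direction and their side of the threshold, 21 lost the threshold and 1 turned. Requiring at least 10 counts in every library left 5 Hox genes tested, since genes absent from a line drop out, and the counts called were then 2 (MamBo38 against MamBo89), 3 (untreated MamBo43 against MamBo89), 1 (MamBo38 against untreated MamBo43), 1 (MamBo43 TRT against untreated MamBo43), 0 (MamBo43 TRT against MamBo38, edgeR), 2 (tumor B against tumor A) and 1 (HER2 status). With no filter, HER2 status gave 10. With 1 library left out in turn, the counts ran from 13 to 14 for MamBo38 against MamBo89, 9 to 12 for untreated MamBo43 against MamBo89, 8 to 10 for MamBo38 against untreated MamBo43, 3 to 8 for MamBo43 TRT against untreated MamBo43, 1 to 5 for MamBo43 TRT against MamBo38, 9 to 12 for the tumors, 6 to 10 for HER2 status, 0 to 1 for trastuzumab in MamBo38 and 0 to 4 in MamBo89. For trastuzumab within MamBo38 or MamBo89, each fit with 1 library left out holds 1 library in a group. The log2 fold change of Hoxa9 in MamBo38 against MamBo89 ran from -8.82 to 1.61, the latter without AG3. With the library code as a covariate, Hoxa9 and Hoxb6 (MamBo38 against MamBo89), Hoxa9 and Hoxb7 (MamBo38 against untreated MamBo43), Hoxa13 (MamBo43 TRT against MamBo38) and Hoxa4 (HER2 status) lost their call, and the cause was not tested. DESeq2 gave 13, 10, 8, 6, 4, 11 and 5 calls in the order of comparisons above. No paired analysis was run, and the labels give no replicate numbers. The schedules recur in each line, but a fit with the schedule as a block was not run. Calls on few counts are the ones that depth limits. Among them are those of Hoxb6, Hoxb7, Hoxb13, Hoxc6, and Hoxa13 in MamBo43 TRT. Others rest on few counts in 1 set, Hoxa10 in MamBo38 and Hoxb8 and Hoxb9 in untreated MamBo43.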
